A study of Mus musculus with 12 samples.

Results

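The 10 genes Gas6, Pros1, Axl, Mertk, Tyro3, Stab1, Mfge8, Elmo1, Dock2 and Lrp1 act in the uptake of apoptotic cells by macrophages (efferocytosis). They were chosen by name, with the 3 TAM receptor tyrosine kinases (Tyro3, Axl and Mertk) and their ligands at the centre, at a time when earlier results of these data were known. All 10 were found among the 38887 genes of the deposited tables, and all 10 were among the 12846 genes that were tested. RNA-Seq was performed on bone marrow-derived macrophages (BMMs), which are grown from marrow cells in the presence of M-CSF. The 12 libraries fall into 4 groups of 3, namely untreated WT (WT M0), WT kept for 8 h in IL-4 at 20 ng/ml (WT M2), untreated KO (KO M0) and KO given IL-4 in the same way (KO M2). Cells of all groups came from mice aged 3 to 4 months and were differentiated for 6 days with 50 ng/ml M-CSF. Igf2bp2 encodes an RNA-binding protein that acts on the stability and translation of mRNAs. In the KO mice, loxP sites flanked exons 4 and 5 of Igf2bp2 and Cre was expressed from the Lyz2 locus, which is active in the myeloid lineage. The WT mice were littermates without floxed Igf2bp2, and some of them carried Cre. Which of the sequenced WT mice did so was not given in the sources used here. Lyz2 counts separated every KO library from every WT library (values below). The loss of Igf2bp2 and the insertion of cre into Lyz2 thus cannot be told apart in the comparison of the genotypes.

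In efferocytosis, phosphatidylserine on the surface of a dying cell is recognized either directly by a receptor of the phagocyte or through a soluble bridging protein. Gas6 and protein S (Pros1) are vitamin K-dependent bridges to the TAM receptors. Mfge8 bridges phosphatidylserine to integrins, Stab1 binds it directly, and Lrp1 takes up cells that expose calreticulin. Below the receptors, Elmo1 works with proteins of the Dock family to activate the GTPase Rac, which drives the closing of the phagocytic cup. Mertk is best known for the clearance of apoptotic cells by resting macrophages and Axl for a role in inflamed tissue.

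Libraries held between 20011771 and 39632751 counts, with the lowest totals in WT M2. The values below are CPM, counts brought to a common library size by the TMM method, unless a level per length (TPM) is named. All 8 macrophage markers exceeded 1 CPM in every library, and lymphoid markers summed to at most 0.106 CPM in any library. Lyz2, where cre is inserted, ranged from 4185 to 10544 CPM in WT and from 11.0 to 33.2 CPM in KO libraries. Igf2bp2, counted over the whole gene with the exons that remain, ranged in M0 from 76.5 to 118 CPM in WT and from 84.9 to 95.9 CPM in KO, and in M2 from 178 to 233 CPM in WT and from 129 to 146 CPM in KO. In a bulk library, fewer cells of a type and less RNA per cell cannot be told apart.

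Of the 10 genes, Gas6 showed the largest difference between the genotypes in M0 that passed the test, and it was the one gene of the 10 for which a difference between the IL-4 responses of WT and KO was called. A gene was called at an edgeR adjusted p under 0.05, adjusted over all genes tested. Between KO and WT in M0, 2 of the 10 genes were called, 1 higher (Axl) and 1 lower (Gas6), against 9.78% of all genes tested, of which 5.5% were higher and 4.27% lower. In M2, Axl alone was called, against 2.68% of all genes (1.21% higher and 1.46% lower). IL-4 in WT changed 5 of the 10 genes, 1 upward and 4 downward, where 50% of all genes were called (24.9% higher and 25.1% lower). IL-4 in KO also changed 5 of them, 2 upward and 3 downward, where 52.8% of all genes were called (26.8% higher and 26% lower). The share of the 10 genes was thus at the background for IL-4. A genotype-dependent IL-4 response was called for Gas6 alone, against 3.24% of all genes (1.11% more positive and 2.13% more negative in KO), and Gas6, Mertk and Dock2 had an unadjusted edgeR p under 0.05. Median log2 fold changes of the 10 genes were -0.08 in M0, -0.07 in M2, -0.28 for IL-4 in WT and -0.05 for IL-4 in KO, beside medians of all genes of -0.00066, -0.00093, -0.0076 and 0.014. For the difference between the responses the medians were 0.08 and 0.0065. These comparisons share libraries. The WT M0 group enters the comparison of genotypes in M0, that of IL-4 in WT and the difference between the responses.

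**Figure D1:**
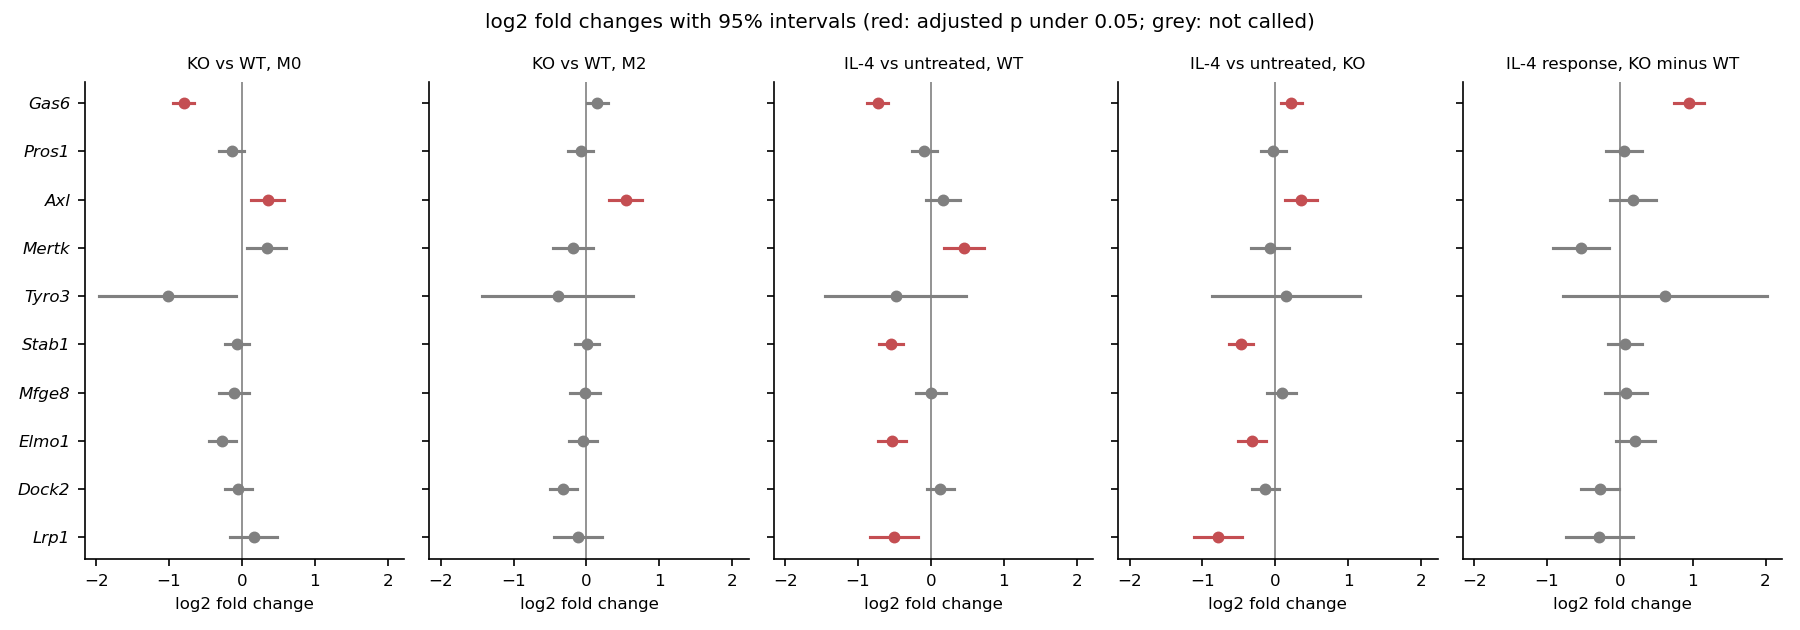
Fitted log2 fold changes (x axis) of the 10 genes (rows) in the 5 comparisons (panels), with 95% intervals as bars and called genes in red. Gas6 lies below 0 for KO against WT in M0 and for IL-4 in WT, and at 0.95 for the difference between the IL-4 responses, whereas the widest intervals belong to Tyro3.

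Gas6 encodes the ligand that binds all of the TAM receptors. Its values were 181, 196 and 197 CPM in WT M0 and 102, 108 and 121 CPM in KO M0. After IL-4, the WT libraries had 119, 111 and 116 CPM, and the KO libraries 131, 120.1 and 133 CPM. WT M0 stood above all other groups without overlap, and the remaining groups lay close together. In M0, Gas6 was 1.74-fold lower in KO (log2 fold change -0.80, SE 0.066, edgeR adjusted p = 5.69e-05), and this call held in all 6 fits that left out 1 library. After IL-4, the KO libraries lay just above the WT libraries (log2 fold change 0.15, 95% interval 0.01 to 0.30), and the difference was not called (edgeR adjusted p = 0.224).

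IL-4 lowered Gas6 1.66-fold in WT (log2 fold change -0.73, SE 0.066, edgeR adjusted p = 1.38e-06), and all 3 pairs of WT libraries with the same number showed the decrease. In KO, Gas6 was 1.16-fold higher after IL-4 (log2 fold change 0.22, SE 0.066, edgeR adjusted p = 0.0133). All 3 KO pairs went up, although the KO M0 and KO M2 libraries overlapped, and the call was lost without KO M0 replicate 1 (edgeR adjusted p = 0.0807) or KO M2 replicate 3 (edgeR adjusted p = 0.0542). On TPM with limma it was also not called (adjusted p = 0.0783 with a pseudocount of 1). The 2 responses differed by a log2 fold change of 0.95 (SE 0.093, 95% interval 0.75 to 1.15, edgeR adjusted p = 0.00114), and this call held without any 1 of the 12 libraries, with log2 differences from 0.89 to 1.02. Stromal cells also make Gas6. The 7 stromal markers summed to between 30.6 and 54.8 CPM in WT M0, 33.5 and 61.2 in WT M2, 8.38 and 31.1 in KO M0, and 9.29 and 27.2 in KO M2, with Lum at 0 in all libraries of 3 groups. The 8 neutrophil markers summed to between 9.27 and 24.1 CPM in WT M0, 5.01 and 14.1 in WT M2, 5.84 and 6.17 in KO M0, and 5.31 and 6.52 in KO M2, with Ly6g at 0 in every library. The part of either cell type in the values of Gas6 was not tested.

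**Figure D2:**
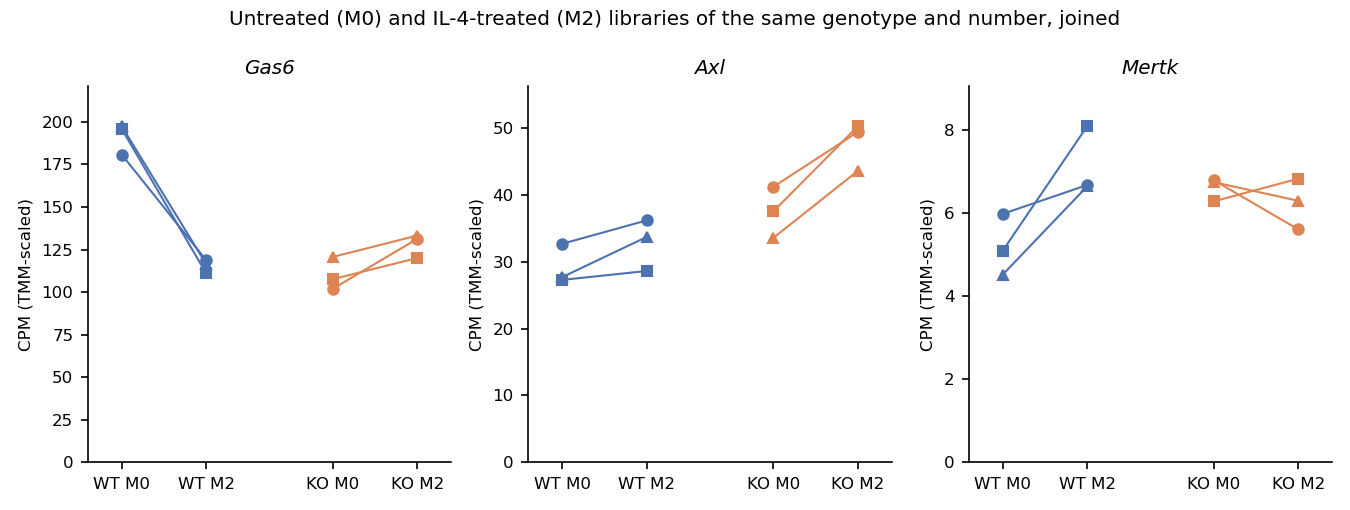
CPM (y axis) of Gas6, Axl and Mertk in M0 and M2 libraries of the same genotype and number, joined by a line, with WT in blue and KO in orange and 1 marker shape for each number. Gas6 falls in all 3 WT pairs and rises in all 3 KO pairs, and Axl is higher in KO than in WT libraries of the same treatment.

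Gas6 lies at chr8:13465374-13494490 on the minus strand (GRCm38, GENCODE M21), where 1 transcript is annotated. Exons of Tmem255b on the opposite strand overlap it, and Tmem255b had 0 CPM in every library. The length given for Gas6 in the tables was 2593 nt in all libraries, so that no change of its transcript length enters its TPM. On that scale the means were 137 ± 4.51 (SD, n = 3) in WT M0, 79.4 ± 2.99 in WT M2, 78.7 ± 6.21 in KO M0 and 86.6 ± 4.17 in KO M2. The same separation of WT M0 from the other groups was thus seen per length.

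The promoters of Gas6 and Axl are shown because these genes were called in opposite directions between the genotypes in M0. Each sequence is the RefSeq window (GRCm38.p6, minus strand, chr8:13494486-13494785 for Gas6 and chr7:25788684-25788983 for Axl) from 250 bases before to 50 bases after the start site, with GC boxes (GGGCGG on either strand) in capitals.
Gas6 promoter: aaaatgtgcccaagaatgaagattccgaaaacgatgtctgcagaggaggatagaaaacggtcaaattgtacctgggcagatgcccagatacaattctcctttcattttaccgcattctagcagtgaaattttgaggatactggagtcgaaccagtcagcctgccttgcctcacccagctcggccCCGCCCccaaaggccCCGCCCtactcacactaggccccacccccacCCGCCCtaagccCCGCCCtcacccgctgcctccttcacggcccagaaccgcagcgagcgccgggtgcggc
Axl promoter: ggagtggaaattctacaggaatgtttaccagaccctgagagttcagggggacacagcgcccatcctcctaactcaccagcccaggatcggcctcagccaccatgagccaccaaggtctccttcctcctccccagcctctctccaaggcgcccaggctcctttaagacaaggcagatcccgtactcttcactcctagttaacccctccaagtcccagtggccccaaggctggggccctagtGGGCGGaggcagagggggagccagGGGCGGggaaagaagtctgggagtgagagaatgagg
The Gas6 window holds 4 GC boxes, which begin at -66, -51, -20 and -8 relative to the start site, and the Axl window holds 2, at -10 and 15. A GC box was found in 35.7% of the 32851 mouse promoters of the same length. Neither window matches TTC and GAA separated by any 4 bases, the spacing bound by the IL-4-activated factor STAT6, which 6.95% of all promoters contain, nor the letters searched for AP-1 (TGANTCA, 7.81%), PU.1 (GAGGAAGT, 3.2%) or the E-box CACGTG (7.15%). Of the 10 genes, Pros1 alone has a match to this STAT6-type spacing in its window, at -222. These matches describe letters only, since no binding was measured.

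Pros1 encodes protein S, the other TAM ligand, which activates Mertk and Tyro3. Its libraries ranged from 49.9 to 56.1 CPM in WT M0, 43.1 to 53.8 in WT M2, 46.2 to 49.8 in KO M0 and 45.5 to 49.7 in KO M2. No comparison called it, with edgeR adjusted p of 0.301 in M0 and 0.621 in M2. Its 95% interval for KO against WT in M0, -0.31 to 0.03 on the log2 scale, does not reach the size of the Gas6 difference. Per length, Gas6 was 4.64, 4.19 and 4.54 times as abundant as Pros1 in the WT M0 libraries, 3.52, 2.65 and 2.80 times in WT M2, 2.66, 2.67 and 3.34 times in KO M0 and 3.59, 3.09 and 3.60 times in KO M2. WT M0 again stood above KO M0 and WT M2 without overlap (exact two-sided permutation p = 0.1 for both, the smallest that 3 against 3 libraries allow, and 0.32 after adjustment over 16 ratio tests).

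Axl was the TAM receptor with the highest level in these macrophages. It measured 32.7, 27.3 and 27.7 CPM in WT M0 and 41.2, 37.5 and 33.5 CPM in KO M0. After IL-4 the WT libraries had 36.2, 28.6 and 33.7 CPM, and the KO libraries 49.4, 50.2 and 43.6 CPM. KO libraries lay above WT libraries of the same treatment without overlap. The KO to WT difference was 1.28-fold in M0 (log2 fold change 0.35, SE 0.10, edgeR adjusted p = 0.048) and 1.45-fold in M2 (log2 fold change 0.54, SE 0.10, edgeR adjusted p = 0.0229). In M0 the call stood close to the threshold. It was lost without WT M0 replicate 2 or 3 (edgeR adjusted p = 0.165 and 0.0946), without KO M0 replicate 1, 2 or 3 (0.157, 0.131 and 0.05), with the 6 libraries of the comparison alone (0.0636) and after thinning to equal depth (0.0659). On TPM the M0 difference was larger and called (limma 0.58 with a pseudocount of 1, adjusted p = 0.0315). In M2 it was lost without WT M2 replicate 2 (edgeR adjusted p = 0.106), KO M2 replicate 2 (0.0888) or KO M2 replicate 3 (0.0642), and with limma on TPM (adjusted p = 0.187 with a pseudocount of 1).

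In response to IL-4, Axl was 1.28-fold higher in KO (log2 fold change 0.35, SE 0.10, edgeR adjusted p = 0.00976), with KO M2 above KO M0 in all 3 pairs and without overlap. Without KO M0 replicate 3 this was no longer called (edgeR adjusted p = 0.0513). In WT the value was 0.17 (95% interval -0.06 to 0.40, edgeR adjusted p = 0.207), and with the number as a replicate block it was 0.17 and called (edgeR adjusted p = 0.0334). The difference between the responses, 0.18, was not called (95% interval -0.13 to 0.50, edgeR adjusted p = 0.554). On TPM the increase in KO was not seen, as limma gave -0.08 with an adjusted p of 0.686. The transcript length behind the TPM of Axl was estimated for each library and lay between 2922 and 3126 nt in KO M0, but between 3415 and 4076 nt in KO M2, 3111 and 3928 nt in WT M0 and 3373 and 3680 nt in WT M2. GENCODE M21 annotates 8 transcripts of Axl, from 382 to 4265 nt, at chr7:25757273-25788705.

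Mertk measured 5.98, 5.09 and 4.52 CPM in WT M0 and 6.68, 8.09 and 6.65 CPM in WT M2. In KO it measured 6.80, 6.29 and 6.75 CPM in M0 and 5.61, 6.83 and 6.30 CPM in M2. The WT M0 libraries were the lowest group but for KO M2 replicate 1, and the other 3 groups overlapped. IL-4 raised Mertk 1.37-fold in WT (log2 fold change 0.45, SE 0.13, edgeR adjusted p = 0.01), a call that was lost without WT M2 replicate 2 (edgeR adjusted p = 0.0524) and with limma on log2(TPM + 0.1) (0.40, adjusted p = 0.0583). In KO the value was -0.08 (95% interval -0.34 to 0.19, edgeR adjusted p = 0.631). KO minus WT, the response of Mertk came to -0.53 (95% interval -0.91 to -0.15) and did not pass the test over all genes (edgeR adjusted p = 0.133, from 0.0536 to 0.289 without 1 library). Between the genotypes it was not called in M0 (log2 fold change 0.34, edgeR adjusted p = 0.105) unless WT M0 replicate 1 was left out (edgeR adjusted p = 0.0476), nor was it called in M2 (-0.19, edgeR adjusted p = 0.428).

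Tyro3 was close to the limit of detection, with 10 to 18 counts per library in WT M0, 5 to 10 in WT M2, 6 to 10 in KO M0 and 5 to 14 in KO M2, and it passed the filter on low counts through WT M0. Untreated WT libraries had 0.52, 0.59 and 0.39 CPM, and untreated KO libraries 0.22, 0.27 and 0.25 CPM. The groups did not overlap, and the difference was not called (log2 fold change -1.02, SE 0.43, edgeR adjusted p = 0.165). No comparison called Tyro3, and its 95% intervals were wide, from -1.96 to -0.08 in M0, -1.43 to 0.64 in M2 and -0.78 to 2.03 for the difference between the IL-4 responses. By TPM, Axl exceeded Mertk 6.10-, 7.47- and 6.73-fold in WT M0, 6.35-, 4.53- and 5.86-fold in WT M2, 9.01-, 8.26- and 7.16-fold in KO M0 and 9.37-, 9.29- and 7.30-fold in KO M2. KO M2 lay above WT M2 without overlap (exact two-sided permutation p = 0.1, adjusted 0.32 over 16 tests), and KO M0 overlapped with WT M0 (exact p = 0.2).

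**Figure D3:**
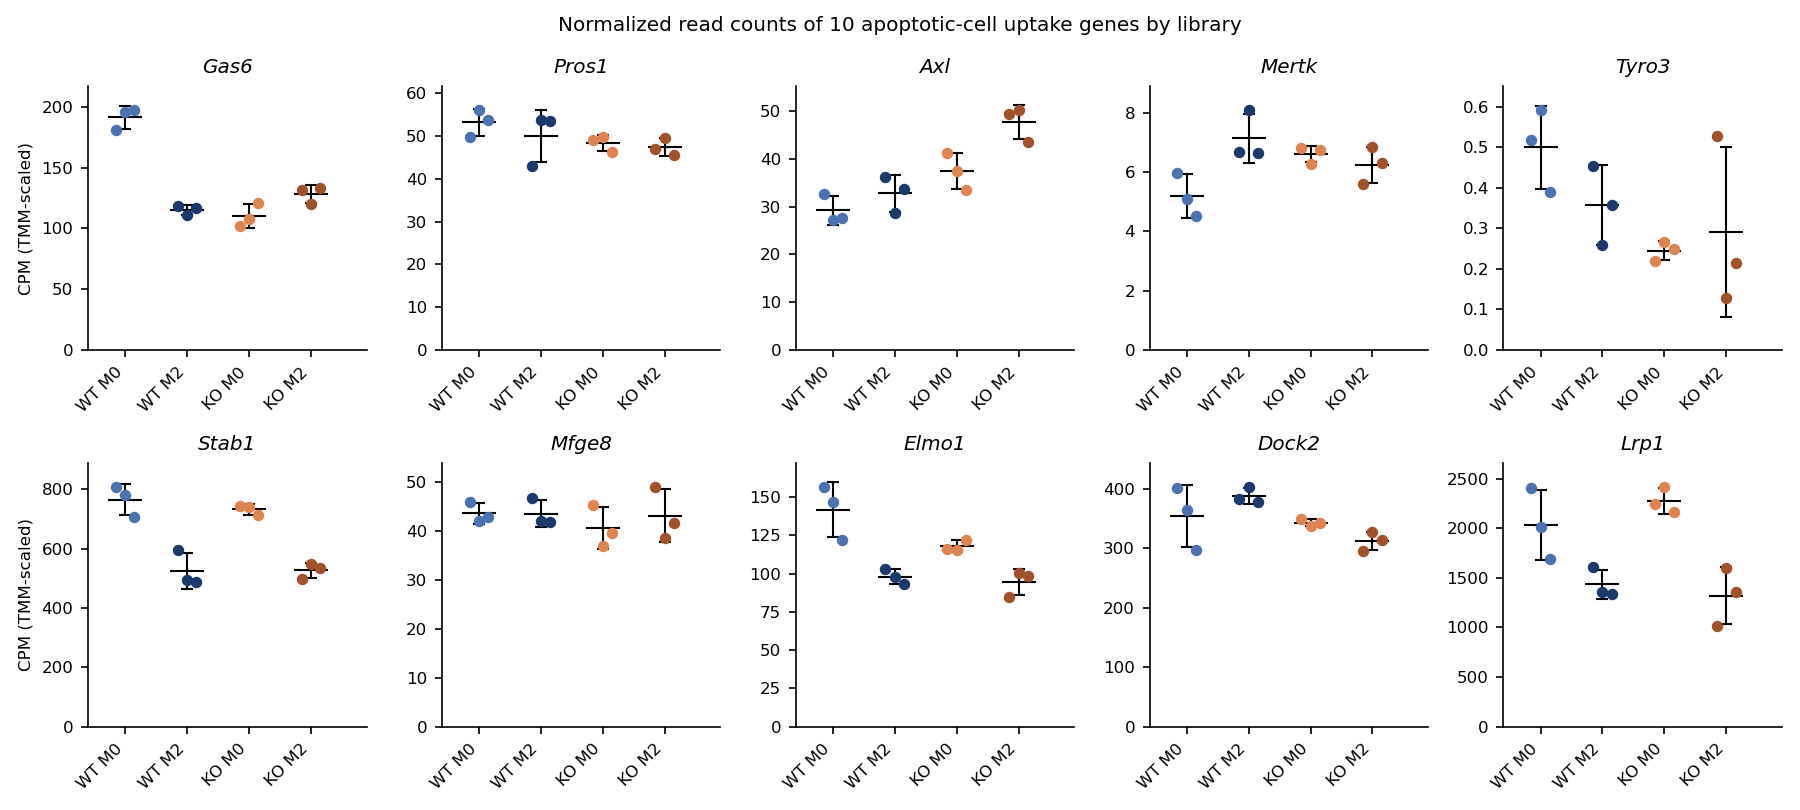
CPM (y axis, from 0) of each of the 10 genes in the 12 libraries, with 1 point per library and the mean and SD (n = 3) of each group as black bars. Gas6 is highest in WT M0, Axl is highest in KO M2, and Stab1, Elmo1 and Lrp1 are lower in both M2 groups than in the M0 group of the same genotype.

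Stab1 (stabilin-1), a scavenger receptor that binds phosphatidylserine, measured 810, 780.0 and 707 CPM in WT M0 and 595, 493 and 487 CPM in WT M2. In KO it measured 744, 742 and 712 CPM in M0 and 497, 549 and 534 CPM in M2. All M2 libraries lay below all M0 libraries, whatever the genotype. IL-4 lowered it 1.46-fold in WT (log2 fold change -0.54, SE 0.076, edgeR adjusted p = 6.47e-05) and 1.39-fold in KO (-0.48, SE 0.076, edgeR adjusted p = 0.000166), and both calls held without any 1 library. Between the genotypes the 95% intervals were -0.23 to 0.10 in M0 and -0.16 to 0.17 in M2. Exons of Nt5dc2 on the opposite strand overlap Stab1 on chromosome 14, and Nt5dc2 (117 CPM on average) also fell with IL-4, by 0.86 on the log2 scale in WT and by 0.67 in KO. The library kit keeps the strand of the RNA, and whether the counting used it was not given in the sources used here.

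Lrp1, the endocytic receptor for calreticulin and many other ligands, had the highest counts of the 10 genes. Its values were 2401, 2007 and 1687 CPM in WT M0 and 1606, 1355 and 1337 CPM in WT M2. In KO they were 2241, 2419.8 and 2159 CPM in M0 and 1015, 1593 and 1354 CPM in M2. IL-4 lowered Lrp1 1.72-fold in KO (log2 fold change -0.78, SE 0.15, edgeR adjusted p = 0.000749) and 1.42-fold in WT (-0.50, SE 0.15, edgeR adjusted p = 0.014), without overlap in either genotype. In WT the call was lost without WT M0 replicate 1 (edgeR adjusted p = 0.0638) or WT M2 replicate 2 (edgeR adjusted p = 0.0545). The difference between the responses was not called (-0.28, 95% interval -0.74 to 0.18), and no genotype difference was called, with 95% intervals of -0.16 to 0.49 in M0 and -0.44 to 0.21 in M2.

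Mfge8, the bridge to integrins, varied least with IL-4 in WT, at 46.0, 42.0 and 42.9 CPM in WT M0 and 46.8, 42.2 and 41.9 CPM in WT M2 (log2 fold change -0.00028, 95% interval -0.21 to 0.21). KO libraries spanned 36.9 to 45.4 CPM without IL-4 and 38.6 to 49.1 CPM with it. It was called in none of the 5 comparisons, and its groups overlapped in each.

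Elmo1, the partner of Dock proteins in Rac activation, measured 157, 147 and 122 CPM in WT M0 and 103, 97.9 and 93.1 CPM in WT M2. In KO it measured 116, 115 and 122 CPM in M0 and 84.7, 100.5 and 98.1 CPM in M2. IL-4 lowered it 1.45-fold in WT (log2 fold change -0.53, SE 0.088, edgeR adjusted p = 0.000262) and 1.25-fold in KO (-0.32, SE 0.088, edgeR adjusted p = 0.00815), and both calls held without any 1 library. The difference between the responses was 0.21 (95% interval -0.06 to 0.48, edgeR adjusted p = 0.402). In M0, Elmo1 was 1.20-fold lower in KO, which was not called (edgeR adjusted p = 0.0735), whereas DESeq2 (adjusted p = 0.0476), thinning to equal depth (0.0499) and the fit without WT M0 replicate 3 (0.00853) placed it under the threshold.

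Dock2, the main Dock protein of leukocytes, ranged from 297 to 401 CPM in WT M0 and from 338 to 348 CPM in KO M0. After IL-4 the WT libraries had 383, 403 and 378 CPM against 296, 327 and 313 CPM in the KO libraries, so that the M2 groups did not overlap. This difference was not called (log2 fold change -0.32, SE 0.085, edgeR adjusted p = 0.0693). It was called by DESeq2 (adjusted p = 0.0132), without the filter on low counts (0.0437) and with the 6 M2 libraries alone (0.0392). IL-4 did not give a call in either genotype, with log2 fold changes of 0.13 in WT and -0.14 in KO (edgeR adjusted p = 0.218 and 0.197). In WT the response was called without WT M0 replicate 1 (0.23, edgeR adjusted p = 0.0258), and in KO with the 6 KO libraries alone (-0.14, edgeR adjusted p = 0.0268).

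Per length, the order of the 10 genes was led by Lrp1 and Stab1, at 738 ± 65.3 and 467 ± 26.0 TPM in WT M0 (SD, n = 3), and ended with Axl at 15.0 ± 2.20, Mertk at 2.23 ± 0.391 and Tyro3 at 0.35 ± 0.132 TPM. In WT M0 the order between them was Gas6, Dock2, Elmo1 (71.1 ± 11.6 TPM), Mfge8 (39.1 ± 2.93 TPM) and Pros1 (30.9 ± 2.72 TPM), and no neighbours in the order overlapped. Dock2 stood above Gas6 in WT M2 and KO M0, with 107 and 98.2 TPM against 79.4 and 78.7. In KO M2 these genes overlapped, as did Elmo1 with Mfge8, and Axl overlapped with Pros1 in KO M0 and KO M2. The lengths in the tables for Lrp1, 4319 to 5707 nt, are shorter than its longest annotated transcript of 14888 nt. When CPM were divided by the longest annotated transcript instead, the first and second places stayed with Lrp1 and Stab1 and the last ones with Axl, Mertk and Tyro3, whereas Elmo1 and Mfge8 changed places in WT M2 and KO M2.

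**Figure D4:**
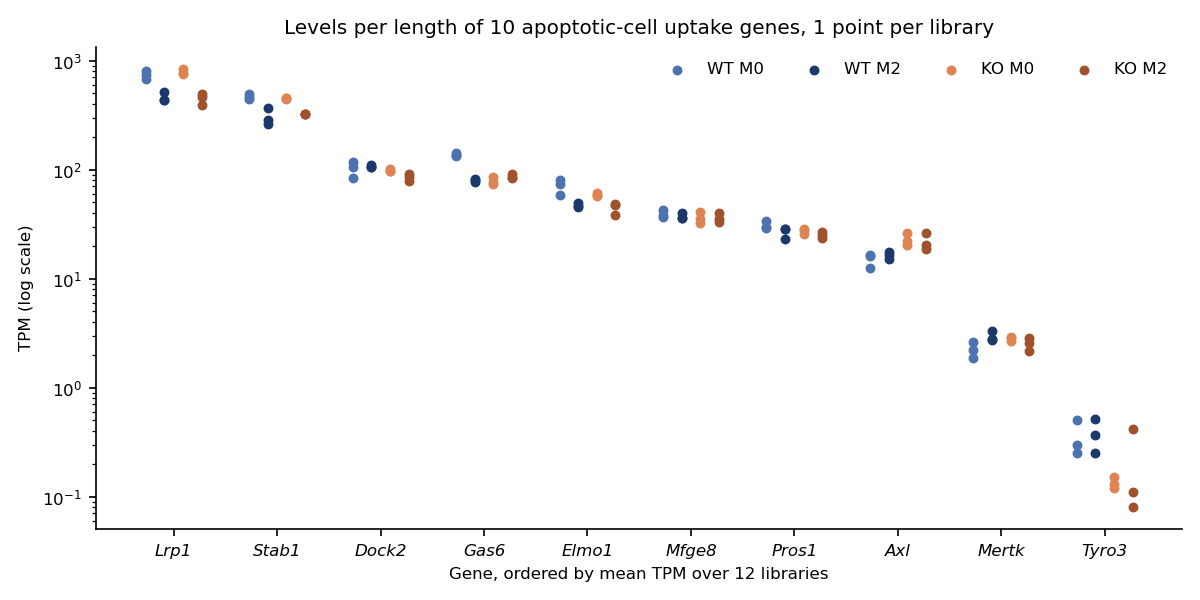
TPM (y axis, log scale) of the 10 genes in each library, coloured by group and ordered by the mean over all 12 libraries. Lrp1 and Stab1 lie highest, Mertk lies between 1.85 and 3.30 TPM in all libraries, and Tyro3 stays at or below 0.51 TPM.

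Another 83 genes of apoptotic-cell uptake were listed around these 10, and 76 of them were tested. Between KO and WT, 16 of the 76 were called in M0 (8 higher, 8 lower), beside 9.78% of all genes, and 5 in M2 (3 higher, 2 lower), beside 2.68%. IL-4 changed 41 of them in WT (23 higher, 18 lower), near the 50% of all genes called, and 48 in KO (26 higher, 22 lower), beside 52.8%. The responses differed for 6 of the 76, beside 3.24% of all genes. With the number as a replicate block, the last count was 11, and that over all genes was 1003 in place of 416, whereas limma on TPM called 3 and 113 and DESeq2 called 12 and 820. The M0 count was 7 with limma (pseudocount 1), 7 without WT M0 replicate 2 or KO M0 replicate 3, and 8 without KO M0 replicate 2. In M2 the count was 8 with DESeq2 and 0 with limma (17 genes at an unadjusted p under 0.05, pseudocount 1). It was also 0 with edgeR without WT M2 replicate 2 or KO M2 replicate 2 or 3, 2 without WT M2 replicate 1 and 3 without KO M2 replicate 1. Median log2 fold changes of the 76 genes were 0.02 in M0, -0.01 in M2, 0.02 for IL-4 in WT and 0.04 for IL-4 in KO.

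Phagosome maturation had 4 of 13 genes called in M0, where 5.5% of all genes were higher and 4.27% lower in KO. These 4 were higher in KO, among them Cybb, the catalytic subunit of the phagocyte NADPH oxidase. Cybb rose from 316, 352 and 366 CPM in WT M0 to 492, 573 and 529 CPM in KO M0 (log2 fold change 0.62, edgeR adjusted p = 0.0113), and it was also higher in M2 (0.58, edgeR adjusted p = 0.04). The M0 call was lost without KO M0 replicate 2 (edgeR adjusted p = 0.0547) and the M2 call without replicate 1 or 2 of WT M2 or replicate 2 or 3 of KO M2 (adjusted p up to 0.13). Of 8 other ligands and opsonins, 2 were lower in KO M0, the complement components C1qa and C1qc, beside 4.27% of all genes. Of 13 other uptake receptors, 2 were lower in KO M0, beside the same 4.27%, and one of these was Itgb3, a subunit of the integrin that Mfge8 bridges to. Itgb3 had 1.71, 1.41 and 1.4 CPM in WT M0 against 0.59, 0.72 and 0.83 CPM in KO M0 (log2 fold change -1.07, edgeR adjusted p = 0.00311). That call held without any 1 library and in 8 of the 9 other alternatives (adjusted p up to 0.0926).

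Engulfment signalling had 4 of 16 genes called in M0, 2 in each direction, beside 9.78% of all genes. Bcar1 (p130Cas), an adaptor that recruits Crk, measured 3.49, 4.11 and 3.66 CPM in WT M0 and 1.58, 1.86 and 1.16 CPM in KO M0 (log2 fold change -1.29, edgeR adjusted p = 0.0142), a call that was lost without WT M0 replicate 2 or KO M0 replicate 3 (adjusted p up to 0.0684). Vav3, a guanine nucleotide exchange factor, was higher in KO in M0 (39.8, 35.7 and 46.1 CPM in WT, 60.4, 62.4 and 61.0 CPM in KO, edgeR adjusted p = 0.00111). In M2 Vav3 was lower in KO (82.0, 84.6 and 76.1 CPM in WT, 59.5, 67.7 and 64.3 CPM in KO, edgeR adjusted p = 0.0447), though that call was lost without any 1 library except WT M2 replicate 3 (adjusted p up to 0.175). IL-4 thus raised Vav3 in WT by 1.00 on the log2 scale, and the responses differed by -0.94 (edgeR adjusted p = 0.00279, called without any 1 library).

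Among 9 genes of TAM ligand carboxylation, receptor shedding and feedback, Socs3, a suppressor of cytokine signalling, was lower in KO M0, at 18.4, 18.7 and 12.6 CPM against 26.4, 34.0 and 31.3 CPM in WT M0 (log2 fold change -0.89, edgeR adjusted p = 0.00306). IL-4 lowered it in both genotypes (log2 fold change -2.21 in WT and -0.84 in KO), and these responses differed (1.38, edgeR adjusted p = 0.00755). Socs1, which TAM receptors and IL-4 both induce, rose with IL-4 from between 1.87 and 2.45 to between 60.2 and 95.2 CPM in WT and from between 1.41 and 2.20 to between 75.5 and 107 CPM in KO. Of these 9 genes, 2 were called in M0, 6 for IL-4 in WT and 7 for IL-4 in KO, where 9.78%, 50% and 52.8% of all genes were called.

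Of 9 efferocytosis regulators and lipid exporters, 1 was called in M0 and 1 in M2, where 9.78% and 2.68% of all genes were called. The cholesterol exporter Abca1 was lower in KO M0 (128, 95.8 and 67.3 CPM in WT, 52.6, 59.1 and 64.3 CPM in KO, edgeR adjusted p = 0.0432), which was lost without any 1 library except WT M0 replicate 3 (adjusted p up to 0.145). The nuclear receptor Ppard was higher in KO M2 (log2 fold change 0.58, edgeR adjusted p = 0.0176), which was lost without WT M2 replicate 2 or KO M2 replicate 2 or 3 (adjusted p up to 0.0852). The other calls in M2 were for the focal adhesion kinase Ptk2 (-0.47, edgeR adjusted p = 0.0275), lost without replicate 2 or 3 of either M2 group (up to 0.0981), and for Gpr132, a receptor for lysophosphatidylcholine-type signals (0.33, edgeR adjusted p = 0.0427), lost without any 1 of the 6 libraries (up to 0.148).

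IL-4 moved the find-me receptor Cx3cr1 furthest, from between 60.4 and 91.7 CPM in WT M0 to between 0.45 and 0.87 CPM in WT M2 and from between 59.8 and 67.2 CPM in KO M0 to between 0.75 and 0.94 CPM in KO M2. Of 5 find-me receptors, 4 were called in each genotype, 1 higher and 3 lower, where IL-4 called 50% of all genes in WT and 52.8% in KO. Itgb3 rose from the low M0 values to between 40.7 and 49.3 CPM in WT M2 and between 39.2 and 42.4 CPM in KO M2. The endotoxin co-receptor Cd14, which also tethers apoptotic cells, fell 8.52-fold in WT and 7.27-fold in KO (edgeR adjusted p = 4.21e-11 and 7.15e-11), and Bcar1 fell 6.19-fold and 5.57-fold (edgeR adjusted p = 2.63e-05 and 7.55e-05). Megf10, a receptor for C1q, was listed at 0 counts in 1 of the 3 WT M2 libraries and in 2 of the 3 KO M2 libraries, against 11 to 29 counts in WT M0 and 8 to 18 in KO M0. All 3 tested do-not-eat-me signals, Cd47, its receptor Sirpa and Cd24a, rose with IL-4 in both genotypes, where 24.9% (WT) and 26.8% (KO) of all genes rose.

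**Figure D5:**
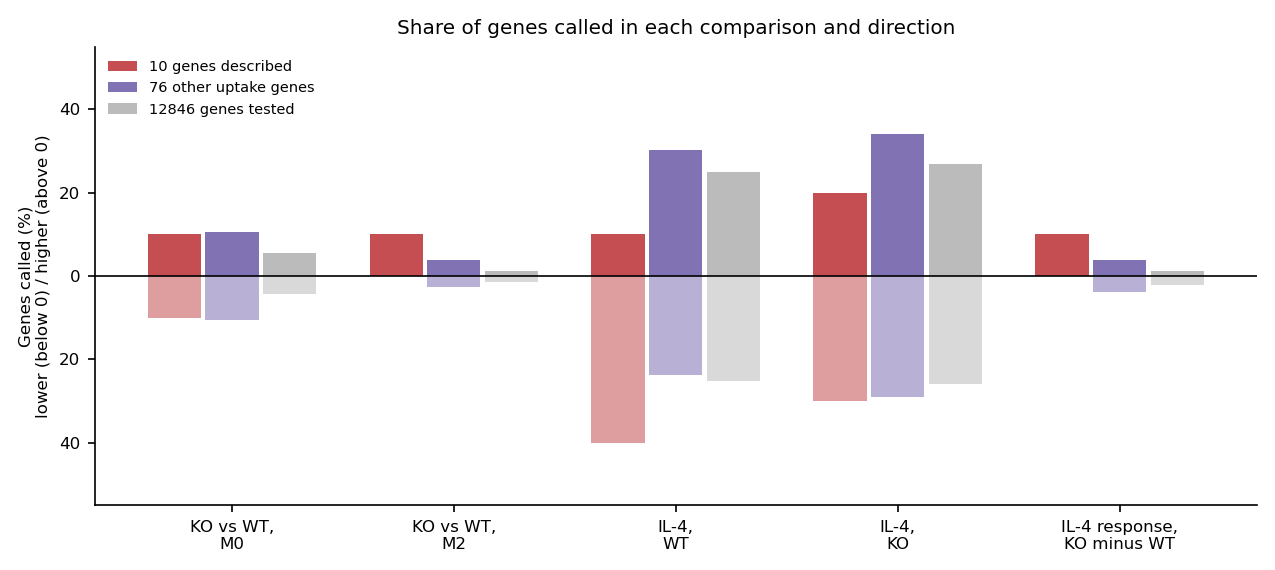
Share of genes called (y axis, in %, higher above 0 and lower below 0) among the 10 genes, the 76 other uptake genes and all 12846 genes tested, for each comparison (x axis). For IL-4 the 10 genes have more calls below 0 (4 in WT and 3 in KO) than above (1 and 2).

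Over the 12 libraries, the genes whose log2 CPM followed Gas6 most closely among all genes tested were Hpse (Pearson r = 0.932), Odc1 (0.928), H2-Q4 (0.910), Slc2a4rg-ps (0.900) and Rbm12b1 (0.898). Each of these had its highest group mean in WT M0, which their choice by likeness to Gas6 favours. Odc1, the rate-limiting enzyme of polyamine synthesis, averaged 406 ± 44.3 CPM there (SD, n = 3) and between 259.7 and 282 CPM in the other groups. Hpse, the heparanase that trims heparan sulphate, averaged 46.2 ± 2.63 CPM in WT M0 and between 31.7 and 32.7 CPM elsewhere. Among the 10 genes, Mertk ran opposite to Gas6 (r = -0.82), as did Axl to a lesser extent (r = -0.49), and Elmo1 (0.62) and Tyro3 (0.61) had the highest positive values. Tyro3 was close to the limit of detection and passed the filter on low counts through WT M0, where Gas6 was highest, which limits its r. All these correlations are descriptions over libraries that share 4 group means and carry no test.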

How the data were processed

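Poly(A) RNA of 12 BMM libraries (WT and KO, M0 and M2, n = 3 per group) was sequenced in single-end mode. The authors deposited 1 table per library with expected counts per gene, which divide reads that match several genes, and with TPM in 2 versions and gene lengths. They also deposited DESeq2 tables of their own comparisons (mean normalized counts, log2 fold changes, errors and p-values), from which only gene symbols were read. FastQC 0.11.2, DESeq2 1.40.2 and the GRCm38 assembly are named in the submitters' processing notes. Reads were run through the Grape-nf pipeline. The aligner within it and the annotation release used for counting were not given in the sources used here. For the posterior SD of a count, the deposited tables hold 0 or nearly 0 for the 10 genes, which leaves almost no uncertainty in the assignment of their reads to genes.

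After rounding of the counts and filterByExpr with the 4 groups, 12846 genes remained, to which edgeR 4.0.16 in R 4.3.3 was applied over all 12 libraries (TMM, quasi-likelihood F test, Benjamini-Hochberg adjustment over all genes, threshold 0.05). The biological coefficient of variation was 8.08%. Standard errors were derived from the F statistic. Ratios were tested on log2 TPM by exact permutation. Coordinates came from GENCODE M21, promoters from RefSeq. No 2 libraries held identical values. Replicates are numbered libraries from 3 mice per group. The p-values measure the spread between these. M0 and M2 libraries of the same genotype and number deviated together (r of 0.331, 0.103 and 0.364 in WT and 0.166, 0.16 and 0.209 in KO). Those that share a number between WT and KO did not (-0.068 to 0.04). The former are called pairs where single libraries are compared by value. The main edgeR fit had no term for pairs and treated all 12 libraries as independent. Its p-values are therefore unpaired, and the number entered only the alternative with a replicate block.

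Counts were simulated for independent libraries with 1 common mean per gene, except for 195 to 200 tested genes changed by a log2 of 1 in 1 group. Of these genes, edgeR called 81.0% for KO against WT in M0 and 76.4% in M2. The share was 86.5% for IL-4 in WT, 86.9% in KO and 73.1% for the interaction. All called changes of the 10 genes were smaller than a log2 of 1, so these shares do not apply to changes of their size. Alternatives were DESeq2 1.42.0, RLE size factors, 2 other filters, a replicate block, the 6 libraries of a comparison alone, thinning to the smallest library leaving out each library, and limma 3.58.1 on log2 TPM with a pseudocount of 1 or 0.1. Levels per longest transcript were added after the data were seen. The 10 genes, picked by name, and the other lists were chosen with earlier results of these data known. The text names all of the 10 genes and, of the other listed genes, up to 6 per comparison with the largest change among those called, the remaining ones by counts. C1qa, C1qc, Cd47, Sirpa and Cd24a were named in addition, after their values were seen. For likeness to Gas6, the 5 genes with the highest r of log2 CPM (prior count 2) were named.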

Additional observations from a re-analysis of the deposited data

Results flagged for a closer look

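The IL-4 response differed between WT and KO macrophages, by the edgeR test of the difference itself, for Gas6 among the 10 genes (log2 difference 0.95, KO minus WT). Beside 3.24% of all genes (1.11% more positive and 2.13% more negative in KO), it also differed for 6 of the 76 other uptake genes tested. These were Socs3 (1.38), Itgb3 (0.93), Gpr132 (0.57), Elmo2 (-0.43), Uvrag (-0.45) and Vav3 (-0.94). For Gas6 the WT and KO responses had opposite signs. Leaving out 1 library at a time kept the call in 12 of 12 fits for Gas6, Socs3, Vav3 and Gpr132. It was kept in 10 of 12 for Itgb3 (lost without KO M0 replicate 1 or 2, edgeR adjusted p up to 0.0652), in 8 of 12 for Uvrag (lost without replicate 2 of WT M0, WT M2 or KO M0, or KO M0 replicate 1, up to 0.0616) and in 5 of 12 for Elmo2 (lost without replicate 2 of any group, or replicate 3 of WT M2, KO M0 or KO M2, up to 0.0835). Under the 8 other alternatives, the calls of Gas6, Socs3, Vav3 and Elmo2 held in all 8, whereas those of Gpr132, Uvrag and Itgb3 held in 6 (adjusted p up to 0.062, 0.0996 and 0.696).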

How the results depend on the processing

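Of the values of the 10 genes under all alternatives, 729 kept their direction and side of the threshold, 21 lost a call, 10 gained one, 26 uncalled values changed sign and 2 called values reversed. The calls of Gas6 for KO against WT in M0, for IL-4 in WT and for the difference between the responses held under all alternatives and without any 1 library, as did those of Stab1 and Elmo1 for IL-4 in either genotype. These Gas6 comparisons all contain the WT M0 group and are not separate results. The sign of Axl for IL-4 in KO reversed with limma on TPM, to -0.077 with a pseudocount of 1 and -0.081 with 0.1, where TPM uses the length estimated in each library.

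Of the 10 genes in M0, 1 was called with the 6 libraries alone and 1 to 3 without 1 library. In M2, 2 were called by DESeq2, without the low-count filter and with the 6 libraries alone, 0 by limma with either pseudocount (2 at an unadjusted limma p under 0.05), and 0 to 1 without 1 library (edgeR, 3 at an unadjusted p with all libraries). For IL-4 in WT, 3 to 5 were called without 1 library, and in KO 3 by limma with either pseudocount. Of the other uptake genes, limma called 7 (pseudocount 1) and 8 (pseudocount 0.1) in M0 and 0 in M2 (17 and 16 at an unadjusted p under 0.05), and edgeR called 7 to 17 and 0 to 4 without 1 library (20 in M2 at an unadjusted p with all libraries). In M2, DESeq2 called 8 of these and the 6 libraries alone gave 2. For the difference between the responses, 12 were called by DESeq2, 3 by limma with either pseudocount, 11 with the replicate block and 4 to 9 without 1 library. Over all genes in M0, 752 and 700 were called by limma and 461 to 1461 without 1 library. In M2 these were 702 by DESeq2, 70 and 57 by limma, 165 with the 6 libraries and 25 to 298 without 1 library. The difference between the responses had 820, 113 and 113, 1003 with the replicate block and 183 to 643. The cause of these changes was not tested. The replicate block changed 1 call of the 10 genes, that of Axl for IL-4 in WT. Of the other uptake genes named for KO against WT, where libraries share only a number, the block left Abca1 in M0 (edgeR adjusted p = 0.0655) and Vav3 and Gpr132 in M2 (0.0573 and 0.0588) uncalled.

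Log2 ratios with Tyro3 had no stable sign for IL-4. Axl to Tyro3 in WT was 0.01, with -0.15 on posterior mean TPM and -0.40 to 0.28 without 1 library. In KO it was -0.30, with 0.35 on CPM, 0.06 on posterior mean TPM and -0.92 to 0.46 without 1 library. Mertk to Tyro3 without 1 library spanned -0.11 to 0.64 in WT and -0.95 to 0.44 in KO, and Axl to Mertk in KO spanned -0.005 to 0.20. Low counts limit Tyro3, and 3 libraries per group limit every test.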
